A study of Mus musculus with 8 samples.

Results

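The 10 genes described here are p53 (Trp53), the transcription factor of the DNA damage response, and 9 of its targets: Mdm2, Cdkn1a, Ccng1, Bbc3, Pmaip1, Gadd45a, Sesn1, Zmat3 and Phlda3. They were chosen by name from the 19688 genes of the deposited expression table, and each symbol matched 1 row. RNA was sequenced from mouse blastocysts, embryos made of an outer trophectoderm and an inner cell mass around a cavity. The groups were blastocysts vitrified (cooled to a glass) with 1e-10 M melatonin in the vitrification and thawing solutions (3 libraries), blastocysts vitrified and thawed without melatonin (3 libraries), and fresh, never vitrified blastocysts (2 libraries). Sample titles begin with IVF for fresh, VT for vitrified and MVT for melatonin-vitrified libraries. The sources used here give no strain, embryo age or number of embryos per library. Replicate numbers used here are the labels' biosample numbers, and the sample titles carry other numbers. Neither says whether replicates came from separate pools of embryos, so that the p-values describe spread among these libraries, which may be technical.

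The p53 protein is a transcription factor that is made continuously and destroyed continuously. Mdm2, a ubiquitin ligase, marks it for breakdown and is itself switched on by p53, so that the pair forms a negative feedback loop. When DNA breaks or other stress stabilises the protein, it binds response elements near its target genes, and the products of these genes stop the cell cycle (Cdkn1a), start apoptosis (Bbc3, Pmaip1) or restrain growth signalling and oxidative damage (Sesn1, Phlda3). Because the protein is controlled mainly after translation, the level of Trp53 RNA is not itself a measure of p53 activity.

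Expression was given as FPKM, fragments scaled to transcript length and to the total of a library, which allows levels to be compared between genes. The libraries held an estimated 5815000 to 9940000 fragments, and 1 FPKM of a 2 kb transcript was worth 11.6 to 19.9 of them. Fresh replicate 1 stood apart, with 11.27% of its summed FPKM in transcripts of the mitochondrial genome against 4.24% to 6.56% in the other 7 libraries. It was also the lowest library for 33.2% of tested genes, against 5.87% to 15.2% for the others, and its median ratio size factor was 0.858, against 1.00 to 1.09. The 4 Y-linked genes Ddx3y, Eif2s3y, Kdm5d and Uty summed to 0 FPKM in vitrified replicates 2 and 3 and to between 20.9 and 36.8 FPKM in the other 6 libraries. Whether either had a part in the results was not tested beyond leaving out each library in turn. All 10 trophectoderm, 11 epiblast and 10 primitive endoderm markers examined reached 1 FPKM. The 3 cumulus cell markers in the table did not reach it in any library. Of 4 blood markers looked for, the 2 in the table summed to 2.83 to 10.3 FPKM. Most of this sum was Spi1, at 2.393 to 8.997 FPKM over the 8 libraries, while Hba-a1 was at 0 to 1.344 FPKM. Summed trophectoderm markers were at 8915 to 11490 FPKM in melatonin-vitrified, 6653 to 11120 in vitrified and 7806 to 7889 in fresh libraries. Summed epiblast markers were at 407.5 to 509 FPKM in melatonin-vitrified, 386 to 537 in vitrified and 318 to 371 in fresh libraries, and summed primitive endoderm markers were at 137 to 182 FPKM in melatonin-vitrified, 173 to 234 in vitrified and 115 to 197 in fresh libraries. Krt8 and Krt18 made up most of the trophectoderm sums. Zfp42 and Dab2 were the largest parts of the epiblast and primitive endoderm sums. Single markers differed in direction. Nanog was at 3.49 and 9.8 FPKM in fresh against 28.3 to 54.6 in the other libraries. Gata3 was at 67.3 and 78.2 against 104 to 165, Elf5 at 16.2 and 15.8 against 5.72 to 10.6, and Zfp42 at 216 and 245 against 175 to 250. In these bulk samples fewer cells of a type and less RNA per cell cannot be told apart.

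Sequences that resemble the p53 binding motif are shown first, for the members whose promoter windows come closest to it. The p53 response element is a pair of half-sites of 10 letters, each made of 3 purines, a core that reads C, 2 letters that are A or T, and G, and then 3 pyrimidines. The motif is its own reverse complement, so both strands are searched at once. Only half-sites that directly follow each other were searched as a pair, with no bases between them. Windows of 300 bases (250 before and 50 after a RefSeq start, build GRCm38.p6) were found for 8 of the 10 members, Pmaip1 and Zmat3 excepted, and made up 12 of 32851 windows. Each line that follows is the closest site of a member, over all of its windows, read 5′ to 3′ on the strand of the gene, and capitals mark the letters of each core that match the motif.
Cdkn1a: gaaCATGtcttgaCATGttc
Ccng1: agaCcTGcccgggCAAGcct
Bbc3: ctgCAAGccccgaCTTGtcc
Trp53: ggaCTTGcccttaCTTGtta
Sesn1: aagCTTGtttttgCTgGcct
Gadd45a: aaaCTAcctagagCTgGctc

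The first pair of sites departed from the motif at 1 of 20 positions, position 11 in Cdkn1a and position 5 in Ccng1, counted from 1 at the 5′ end. Only 0.0883% of all windows held a match that close. The Cdkn1a site (chr17:29090928-29090947, plus strand) began 51 bases before the more distal of its 2 annotated starts, and the Ccng1 site (chr11:40755462-40755481, minus strand) began 195 bases before its start. Neither overlapped a gene or exon of GENCODE release M21. The sites of Bbc3 (chr7:16309486-16309505, plus strand, inside the gene and outside its exons), Trp53, Sesn1 and Gadd45a departed at 3 positions, which 6.29% of all windows matched or bettered. These shares are per window, and some members had several. The other windows departed at 5 positions in Cdkn1a, 6 in Sesn1, and 5 and 6 in Bbc3. The best sites of Mdm2 and Phlda3 departed at 5, which 76.6% of windows matched or bettered, although the Mdm2 window held 1 half-site without a mismatch, gaaCTTGcct, that began 186 bases before the start. At least 1 such half-site was found in 8.36% of all windows and in those of 6 members. A match in these letters is not evidence of binding. No match says only that the motif without bases between its half-sites is not in this window.

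**Figure D1:**
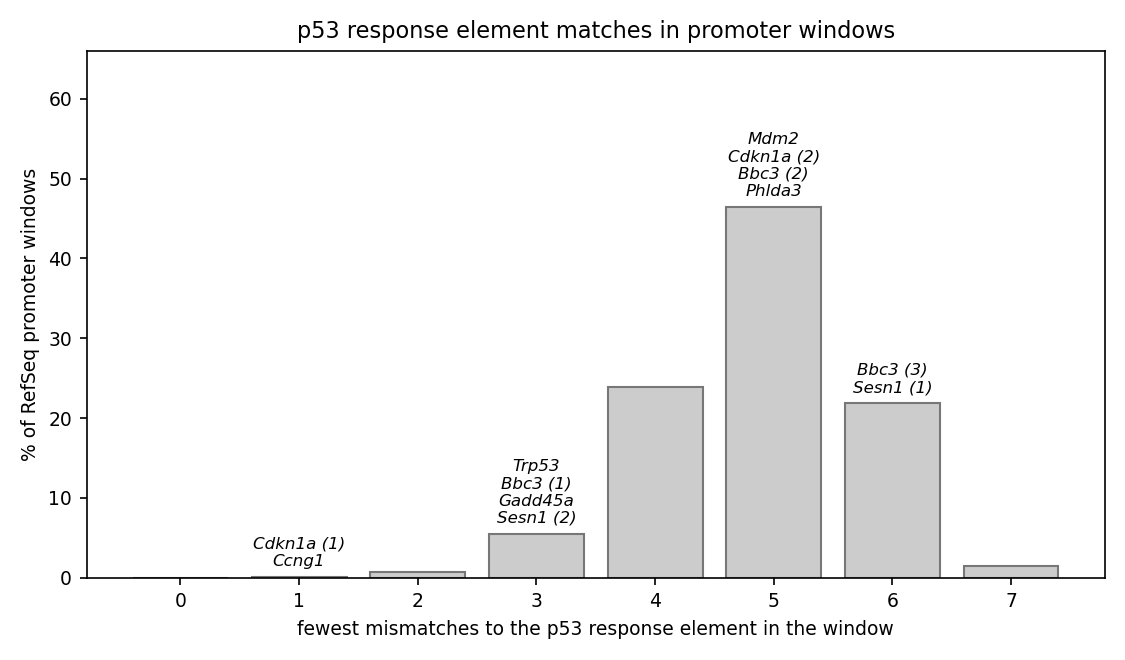
Share of the 32851 RefSeq promoter windows (bars, % of windows) by the fewest mismatches to the p53 response element found in the window, with the 12 windows of the members written above the bar they belong to; a number in brackets marks which of several annotated starts. The first Cdkn1a window and that of Ccng1 lie at 1 mismatch, where few windows lie, and those of Mdm2 and Phlda3 at 5, the most frequent value.

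The 220 bases from 250 to 31 before each start show these 2 sites, in capitals, in their surroundings, for Cdkn1a at chr17:29090729-29090948 (plus strand) and for Ccng1 at chr11:40755317-40755536 (minus strand).
Cdkn1a: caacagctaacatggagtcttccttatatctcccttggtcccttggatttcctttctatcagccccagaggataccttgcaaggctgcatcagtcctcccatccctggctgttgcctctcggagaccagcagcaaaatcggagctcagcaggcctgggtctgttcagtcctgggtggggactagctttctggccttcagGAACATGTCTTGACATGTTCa
Ccng1: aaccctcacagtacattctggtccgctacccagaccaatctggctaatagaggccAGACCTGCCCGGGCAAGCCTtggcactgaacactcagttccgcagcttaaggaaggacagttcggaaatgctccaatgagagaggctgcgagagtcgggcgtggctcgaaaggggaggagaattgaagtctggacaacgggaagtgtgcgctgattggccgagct

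The members spanned a wide range of expression. Averaged over the 8 libraries, Phlda3 was at 51.4 FPKM and Ccng1 at 48.1 FPKM, followed by Cdkn1a at 25.6, Mdm2 at 11.7, Trp53 at 11.3, Pmaip1 at 6.50, Sesn1 at 3.52, Bbc3 at 2.93, Gadd45a at 0.933 and Zmat3 at 0.242 FPKM. The ranges of neighbours in this order overlapped, except those of Gadd45a and Zmat3. Within each of the 8 libraries there was more Ccng1 than Cdkn1a. By mean level Phlda3 and Ccng1 lay at percentiles 93.4 and 93.0 of all genes, and Trp53 and Mdm2 at 80.5 and 80.9. Of the members, 8 reached 1 FPKM in at least 2 libraries and entered the test, while Gadd45a and Zmat3 did not.

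**Figure D2:**
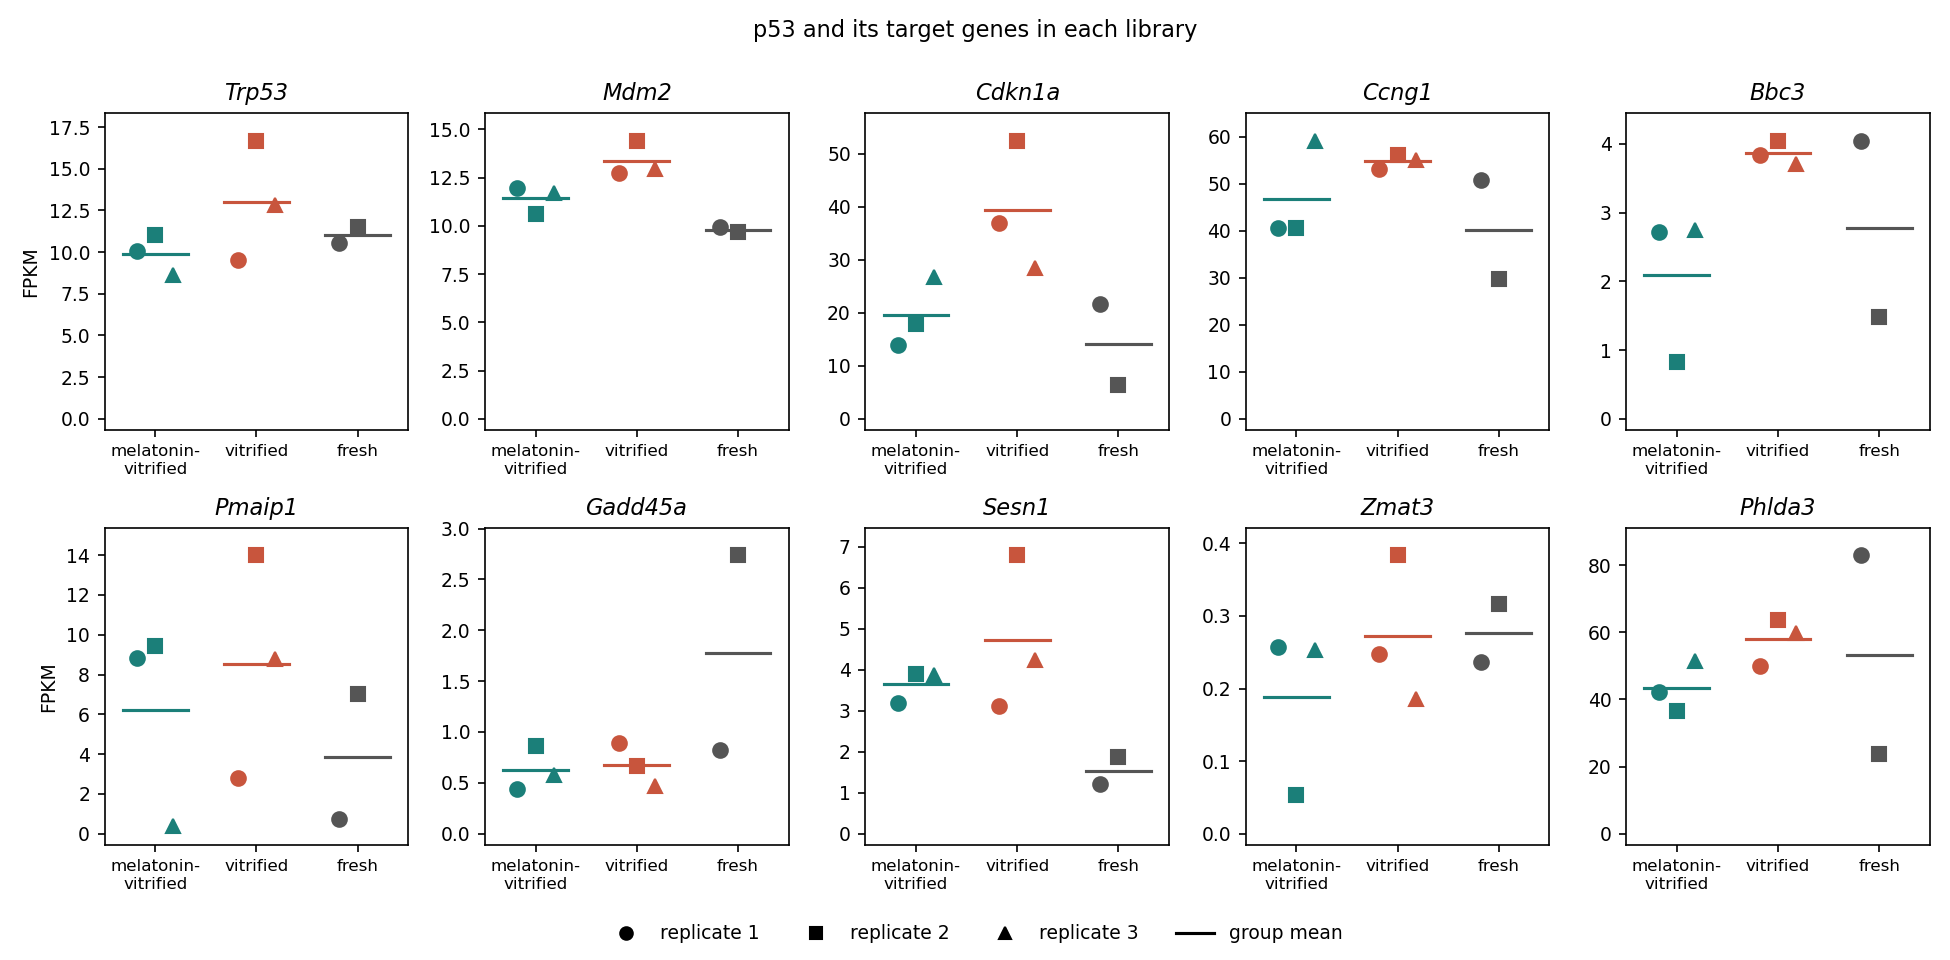
FPKM of the 10 members (1 panel each, linear axes of different height) in melatonin-vitrified, vitrified and fresh libraries, with 1 point per library, shaped by replicate number, and lines at the group means. Mdm2 forms 3 groups that do not overlap in these unscaled values. Cdkn1a and Sesn1 are lowest in fresh libraries on average, and the 2 fresh libraries lie far apart for Cdkn1a, Pmaip1 and Phlda3.

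Trp53 (chromosome 11, 69580359 to 69591873, mm10) had 1.94 times as much in its highest library as in its lowest. It was at 10.1, 11.0 and 8.60 FPKM in melatonin-vitrified, 9.50, 16.7 and 12.8 FPKM in vitrified, and 10.5 and 11.5 FPKM in fresh libraries. Vitrified replicate 2 was the highest, and all 3 groups overlapped. The difference in mean log2(FPKM + 1) was 0.19 between vitrified and fresh blastocysts (95% confidence interval -0.34 to 0.71, limma adjusted p = 0.691). Between melatonin-vitrified and vitrified blastocysts it was -0.34 (-0.80 to 0.13, adjusted p = 0.479). Without vitrified replicate 2 these differences were 0.00 and -0.15.

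Mdm2, the ubiquitin ligase that limits p53 (chromosome 10, 117688875 to 117710758), was the member whose libraries agreed best. It was at 12.0, 10.6 and 11.7 FPKM in melatonin-vitrified, 12.7, 14.4 and 12.9 FPKM in vitrified, and 9.93 and 9.67 FPKM in fresh libraries. In unscaled FPKM the 3 groups did not overlap: vitrified libraries were highest, melatonin-vitrified libraries lay between, and fresh libraries were lowest. The steps were small, with a mean of 13.4 ± 0.920 FPKM in vitrified (SD, n = 3) against 9.80 ± 0.185 FPKM in fresh blastocysts (SD, n = 2), a log2 difference of 0.41 ± 0.16 (SE) that did not pass (adjusted p = 0.204). The difference between melatonin-vitrified and vitrified blastocysts was -0.21 ± 0.15 (adjusted p = 0.530), and that between melatonin-vitrified and fresh blastocysts 0.20 ± 0.16 (adjusted p = 0.536). With the libraries scaled by median ratios, which removes the general shift described below, the first of these was 0.23 and the last 0.09. After this scaling fresh replicate 1 lay within the melatonin-vitrified range, so those groups overlapped.

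Cdkn1a encodes p21, the inhibitor of cyclin-dependent kinases through which p53 arrests the cell cycle (chromosome 17, 29090976 to 29100727), and had the largest log2 difference among tested members between vitrified and fresh blastocysts, although Sesn1 had the larger ratio of means (3.08 against 2.80) and the order changed when fresh replicate 2 was left out. It was at 13.9, 17.8 and 26.8 FPKM in melatonin-vitrified, 36.9, 52.5 and 28.5 FPKM in vitrified, and 21.7 and 6.43 FPKM in fresh libraries. In unscaled FPKM all 3 vitrified libraries lay above the other 5, with melatonin-vitrified replicate 3 close below vitrified replicate 3. Median ratio scaling brought this pair almost level. The log2 difference between vitrified and fresh blastocysts was 1.59 ± 0.45 (95% interval 0.58 to 2.6), with an adjusted p of 0.0945 that did not pass. With melatonin the difference from vitrified blastocysts was -0.98 ± 0.40 (-1.88 to -0.08, adjusted p = 0.304), and that from fresh blastocysts 0.61 ± 0.45 (adjusted p = 0.493). The fresh libraries set the size of the first value, which was 0.79 without fresh replicate 2 and 2.40 without fresh replicate 1. With median ratio scaling it was 1.40. A transcript model on the opposite strand (AC167363.2) shares 273 of the 3553 exonic bases of Cdkn1a, and whether strand was used in counting is not stated.

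Ccng1, a cyclin that recruits a phosphatase to Mdm2 (chromosome 11, 40748552 to 40755311), was among the most abundant members. It was at 40.6, 40.6 and 59.2 FPKM in melatonin-vitrified, 53.2, 56.1 and 54.99 FPKM in vitrified, and 50.8 and 29.7 FPKM in fresh libraries. The vitrified libraries were close together, at 54.7 ± 1.47 FPKM (SD, n = 3), and above both fresh libraries in unscaled FPKM. The melatonin-vitrified libraries lay on both sides of the vitrified ones. With median ratio scaling fresh replicate 1 lay above the vitrified libraries. The log2 differences were 0.48 ± 0.24 for vitrified against fresh (adjusted p = 0.298), -0.25 ± 0.22 for melatonin-vitrified against vitrified (adjusted p = 0.628) and 0.24 ± 0.24 for melatonin-vitrified against fresh blastocysts (adjusted p = 0.632). The first was 0.11 without fresh replicate 2, 0.86 without fresh replicate 1 and 0.29 with median ratio scaling.

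Gadd45a, a growth arrest protein induced by DNA damage (chromosome 6, 67035096 to 67037457), was near the lower limit. It was at 0.439, 0.861 and 0.580 FPKM in melatonin-vitrified, 0.893, 0.668 and 0.470 FPKM in vitrified, and 0.820 and 2.74 FPKM in fresh libraries. Fresh replicate 2 was the only library above 1 FPKM, so the gene was not tested. A noncoding gene on the opposite strand (E230016M11Rik) shares 337 of its 1764 exonic bases and was at 0 to 0.303 FPKM.

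The BH3-only genes, whose products set off apoptosis by binding BCL2 proteins, differed in how far replicates agreed. Bbc3 encodes PUMA (chromosome 7, 16308393 to 16318205). It was at 2.71, 0.824 and 2.74 FPKM in melatonin-vitrified, 3.84, 4.03 and 3.71 FPKM in vitrified, and 4.05 and 1.49 FPKM in fresh libraries. The 3 vitrified libraries lay above all 3 melatonin-vitrified libraries, and fresh replicate 1 lay level with the vitrified ones while fresh replicate 2 did not. The log2 difference was -0.73 ± 0.34 between melatonin-vitrified and vitrified blastocysts (95% interval -1.49 to 0.03, adjusted p = 0.355). It was 0.46 ± 0.38 between vitrified and fresh blastocysts (adjusted p = 0.534) and -0.27 ± 0.38 between melatonin-vitrified and fresh blastocysts (adjusted p = 0.739). Without melatonin-vitrified replicate 2 the first of these was -0.38, and without fresh replicate 2 the second was -0.05.

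Pmaip1 encodes NOXA, the other BH3-only member (chromosome 18, 66458533 to 66465565), and varied most between libraries of the same group. It was at 8.83, 9.45 and 0.375 FPKM in melatonin-vitrified, 2.80, 14.0 and 8.79 FPKM in vitrified, and 0.718 and 7.02 FPKM in fresh libraries. The highest library had 37.4 times the level of the lowest, and each group held both low and high libraries, so that all groups overlapped. The log2 difference of vitrified from fresh blastocysts, 1.15, had a 95% interval of -1.0 to 3.29 (adjusted p = 0.535). It was 0.04 without fresh replicate 1 and 2.26 without fresh replicate 2. The difference of melatonin-vitrified from vitrified blastocysts was -0.66 (-2.58 to 1.26, adjusted p = 0.750) and 0.30 without melatonin-vitrified replicate 3. Against fresh blastocysts the melatonin-vitrified group differed by 0.49 (-1.66 to 2.63, adjusted p = 0.827).

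Sesn1, a sestrin that restrains mTORC1 signalling and limits oxidative damage (chromosome 10, 41809935 to 41908424), was lower in both fresh libraries than in any vitrified library, with or without melatonin. It was at 3.20, 3.89 and 3.87 FPKM in melatonin-vitrified, 3.12, 6.79 and 4.25 FPKM in vitrified, and 1.20 and 1.86 FPKM in fresh libraries. The vitrified and melatonin-vitrified libraries overlapped. The log2 difference of vitrified from fresh blastocysts was 1.14 ± 0.28 (95% interval 0.50 to 1.77, adjusted p = 0.0732) and that of melatonin-vitrified from fresh blastocysts 0.89 ± 0.28 (0.25 to 1.52, adjusted p = 0.172). Neither passed, and both rest on the same 2 fresh libraries. Between melatonin-vitrified and vitrified blastocysts the difference was -0.25 ± 0.25 (adjusted p = 0.671). Leaving out single libraries and the other settings moved the first value between 0.89 and 1.52, and its adjusted p between 0.0656 and 0.232.

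Phlda3, which blocks the membrane binding of the survival kinase AKT (chromosome 1, 135766119 to 135769136), had the highest mean level. It was at 42.2, 36.7 and 51.6 FPKM in melatonin-vitrified, 50.03, 63.8 and 59.9 FPKM in vitrified, and 82.9 and 23.9 FPKM in fresh libraries. The 2 fresh libraries were the highest and the lowest of all 8, so the fresh mean stands for neither. The log2 differences were 0.36 ± 0.41 for vitrified against fresh (adjusted p = 0.661), -0.41 ± 0.37 for melatonin-vitrified against vitrified (adjusted p = 0.629) and -0.05 ± 0.41 for melatonin-vitrified against fresh blastocysts (adjusted p = 0.958). The first was 1.24 without fresh replicate 1 and -0.52 without fresh replicate 2.

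Zmat3, a zinc finger protein that binds RNA (chromosome 3, 32334792 to 32366014), was the least expressed member. It was at 0.258, 0.0537 and 0.253 FPKM in melatonin-vitrified, 0.247, 0.384 and 0.186 FPKM in vitrified, and 0.237 and 0.317 FPKM in fresh libraries. All groups overlapped, and the gene stayed under the filter, so it was not tested.

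Across the tested members no difference passed the limma test in any of the 3 comparisons. Between vitrified and fresh blastocysts 0 of 8 had an adjusted p below 0.05, where 0.865% of the 10755 tested genes did. At an unadjusted p below 0.05, 3 of 8 (Mdm2, Cdkn1a and Sesn1) were higher and 0 lower, against 15.6% and 4.56% of all tested genes. In 4 of 8 (these and Ccng1) all vitrified libraries lay above both fresh ones in unscaled FPKM, as they did for 26.4% of tested genes. With median ratio scaling Ccng1 no longer stood apart, and the share of all tested genes was not recounted. All 8 differences were above 0, against 63.5% of all tested genes, and the median difference was 0.47 against 0.14 for all tested genes. That general shift was -0.01 with median ratio scaling, where the members' median was 0.29. Members that passed the filter are 8 of the 10, and Gadd45a, one of those left out, was highest in a fresh library.

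Between melatonin-vitrified and vitrified blastocysts 0 of 8 members passed, against 0.139% of tested genes (0.0279% higher and 0.112% lower). At an unadjusted p below 0.05, 0 were higher and 1, Cdkn1a, was lower, against 4.59% and 10.2% of all tested genes. In 3 of 8 (Mdm2, Cdkn1a and Bbc3) all melatonin-vitrified libraries lay below all vitrified ones in unscaled FPKM, as for 15.4% of tested genes. In 0 they lay above, as for 9.3%. With median ratio scaling the nearest Cdkn1a libraries of these groups were almost level. All 8 differences were below 0, with a median of -0.37 against -0.05 for all tested genes, of which 43.8% were above 0. The vitrified libraries enter both this comparison and the one before it, so the opposite signs in the pair are not independent of each other.

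Between melatonin-vitrified and fresh blastocysts 0 of 8 members passed, as did 0% of tested genes. At an unadjusted p below 0.05, 1 (Sesn1) was higher and 0 lower, against 11.6% and 6.82% of tested genes. In unscaled FPKM, melatonin-vitrified libraries lay above both fresh ones in 2 of 8, Mdm2 and Sesn1, as for 20.8% of tested genes. With median ratio scaling the Mdm2 groups overlapped. The median difference was 0.22 against 0.09 for all tested genes.

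**Figure D3:**
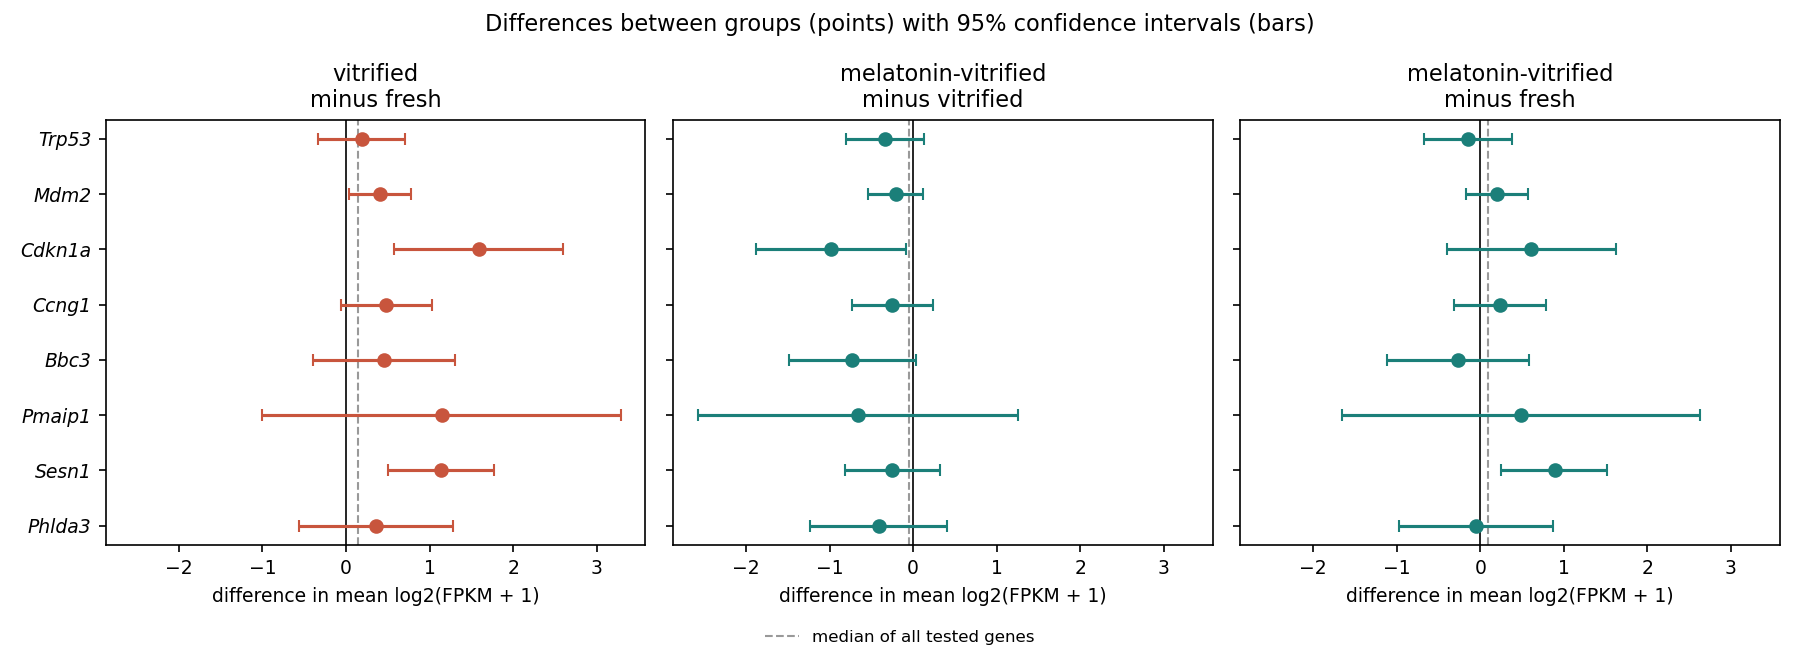
Differences in mean log2(FPKM + 1) (points) with their 95% confidence intervals from limma (bars) for the 8 tested members in the 3 comparisons, with the median of all tested genes as a dashed line. The Mdm2, Cdkn1a and Sesn1 intervals lie above 0 for vitrified minus fresh, all 8 points lie below 0 for melatonin-vitrified minus vitrified, and no difference passed after adjustment over all genes.

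The spread between the 2 fresh libraries limited these comparisons in some members far more than in others. Fresh replicate 1 had 3.37 times the Cdkn1a, 3.48 times the Phlda3, 2.72 times the Bbc3 and 1.71 times the Ccng1 of fresh replicate 2. Fresh replicate 2 had 9.77 times the Pmaip1 and 3.34 times the Gadd45a of fresh replicate 1. On the scale of log2(FPKM + 1), only 0.632% of tested genes had a wider gap between the fresh libraries than Pmaip1, 1.42% than Phlda3 and 2.07% than Cdkn1a. Mdm2 and Trp53 were close in both, with 94.3% and 82.0% of tested genes more different.

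For Trp53, Mdm2 and Cdkn1a the 3 genes with the most similar profile were found among 5721 genes with a mean of at least 5 FPKM. Similarity was the root mean square difference between profiles of log2(FPKM + 1) over the 8 libraries, each centred to a mean of 0 and scaled to an SD of 1, so that 0 is an identical shape. For Trp53 they were Tcl1 (0.26), a coactivator of the kinase AKT, Fam178a (0.32) and Nudt5 (0.35). For Mdm2 they were the mitotic kinesin Kif15 (0.17), the splicing factor kinase Srpk1 (0.30) and Pus1 (0.31), a pseudouridine synthase. For Cdkn1a they were Tpmt (0.21), a thiopurine methyltransferase, Bloc1s2 (0.28) and Bud13 (0.31). With 8 libraries and 5721 genes these are a description of shape, with no test.

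Other genes of the pathway were taken from 5 lists: p53 regulators, further p53 targets of arrest, of apoptosis, and of repair, metabolism and secretion, and cell cycle genes that p21 represses through the DREAM complex. Of 82 listed genes in the table, 76 were tested and 2 passed between vitrified and fresh blastocysts, both higher, against 0.865% of all tested genes. At an unadjusted p below 0.05, 22 of the 76 were higher and 3 lower, against 15.6% and 4.56% of all tested genes. Perp, a p53 target that encodes a junction protein, was at 80.6, 168 and 132 FPKM in melatonin-vitrified, 170, 118 and 127 FPKM in vitrified, and 43.8 and 48.8 FPKM in fresh libraries. It rose in vitrified blastocysts (log2 difference 1.54 ± 0.28, adjusted p = 0.0477), and all 6 libraries of both vitrified groups lay above the fresh ones. Melk, a mitotic kinase of the DREAM list, was at 43.4, 49.7 and 38.4 FPKM in melatonin-vitrified, 47.7, 49.2 and 48.3 FPKM in vitrified, and 24.5 and 28.3 FPKM in fresh libraries, and also rose (0.85 ± 0.16, adjusted p = 0.0493). Neither call was firm: both were lost with median ratio scaling (limma adjusted p = 0.0742 for Perp and 0.0810 for Melk), without fresh replicate 1 (0.124 for both), without each vitrified replicate (0.0767 to 0.137 for Perp, 0.0874 to 0.161 for Melk) and without melatonin-vitrified replicate 3 (0.0793 for Perp, 0.0766 for Melk).

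Between vitrified and fresh blastocysts the remaining genes of each list did not pass, and values are given for the 3 of each with the smallest p. The list medians in the next sentences stand beside 0.14 for all tested genes. With median ratio scaling, where that was -0.01, they were 0.35 for arrest, 0.31 for apoptosis, 0.09 for repair, metabolism and secretion, 0.07 for regulators and 0.25 for DREAM genes. Among 8 tested arrest targets, with a median log2 difference of 0.55, the antiproliferative genes Btg1 and Btg2 were at 1.19 ± 0.25 and 0.96 ± 0.26 and the kinase Plk3 at -2.09 ± 0.59. Among 13 apoptosis targets (median 0.43), Perp passed, and Trp53inp1 and the death receptor Tnfrsf10b were at 1.25 ± 0.28 and 1.07 ± 0.28. Among 21 targets of repair, metabolism and secretion (median 0.27), the secreted stress factor Gdf15 was at -1.72 ± 0.33, the translesion polymerase Polk at 0.97 ± 0.23 and Dcxr at 0.86 ± 0.33. Among 14 regulators (median 0.19), the checkpoint kinase Chek2 was at 0.73 ± 0.28, the p53 phosphatase Ppm1d at 0.54 ± 0.30 and the acetyltransferase Kat5 at -0.63 ± 0.40. Among 20 DREAM genes (median 0.44), Melk passed and the mitotic genes Tpx2 and Plk1 were at 0.75 ± 0.22 and 0.62 ± 0.20.

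Between melatonin-vitrified and vitrified blastocysts 0 of the 76 tested genes passed the limma test, 10 were higher and 6 lower at an unadjusted p below 0.05 (4.59% and 10.2% of all tested genes, with 0.139% called), and the medians of the lists differed in sign. The arrest targets had a median of 0.00, which was 0.07 with median ratio scaling, with Btg1 at -1.08 ± 0.22, Plk3 at 1.20 ± 0.53 and Plk2 at -1.09 ± 0.55. The apoptosis targets had a median of -0.29, with the death receptor Eda2r at -1.03 ± 0.38, Siva1 at -0.40 ± 0.19 and Trp53i11 at 0.84 ± 0.33. Eda2r lies on the X chromosome and was at 2.75, 4.32 and 3.75 FPKM in vitrified replicates 1, 2 and 3. Replicates 2 and 3 are those with a Y-linked sum of 0 FPKM, and whether this had a part was not tested. Targets of repair, metabolism and secretion had a median of -0.13, with Gadd45b, a relative of Gadd45a, at -1.06 ± 0.27, Rps27l at -0.52 ± 0.16 and Gdf15 at 0.74 ± 0.30. Regulators had a median of -0.14, with Rpl5, a ribosomal protein that binds Mdm2, at -0.41 ± 0.17, Kat5 at 0.72 ± 0.35 and the damage kinase Atm at -0.36 ± 0.20. The DREAM genes had a median of 0.21, against -0.05 for all tested genes, with cyclin Ccnb1 at 0.87 ± 0.22 and the kinases Aurka and Nek2 at 0.68 ± 0.17 and 0.76 ± 0.21.

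Between melatonin-vitrified and fresh blastocysts 0 of the 76 tested genes passed the limma test, and at an unadjusted p below 0.05 there were 25 higher and 5 lower, against 11.6% and 6.82% of all tested genes. The DREAM genes had a median of 0.72, against 0.09 for all tested genes, and 14 of 20 were higher at an unadjusted p below 0.05. Of these, Plk1 was at 1.17 ± 0.20, Tpx2 at 1.11 ± 0.22 and Cdc20 at 0.99 ± 0.19. Fresh replicate 1 was the lowest library for most of the 20, against 33.2% of tested genes. Without it Plk1 was at 0.90 and Tpx2 at 0.84, and without fresh replicate 2 they were at 1.45 and 1.38. The medians of the other lists were 0.51 for arrest targets, 0.16 for apoptosis targets, 0.18 for targets of repair, metabolism and secretion and 0.10 for regulators. With median ratio scaling, where the median of all tested genes was 0.00, the medians were 0.61 for DREAM genes, 0.40 for arrest, 0.07 for apoptosis, 0.06 for repair, metabolism and secretion and 0.02 for regulators. Arrest targets with the smallest p were Ckap2 (0.88 ± 0.25), Gtse1 (0.56 ± 0.18) and Sfn (0.38 ± 0.15). Of the apoptosis targets they were Perp (1.37 ± 0.28), Dapk1 (0.81 ± 0.24) and Trp53inp1 (0.76 ± 0.28). Of repair, metabolism and secretion they were Gadd45b (-1.41 ± 0.30), Polk (0.74 ± 0.23) and Rps27l (-0.52 ± 0.18), and of the regulators Rpl5 (-0.61 ± 0.19), Trp53bp1 (0.70 ± 0.26) and Chek2 (0.52 ± 0.28).

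**Figure D4:**
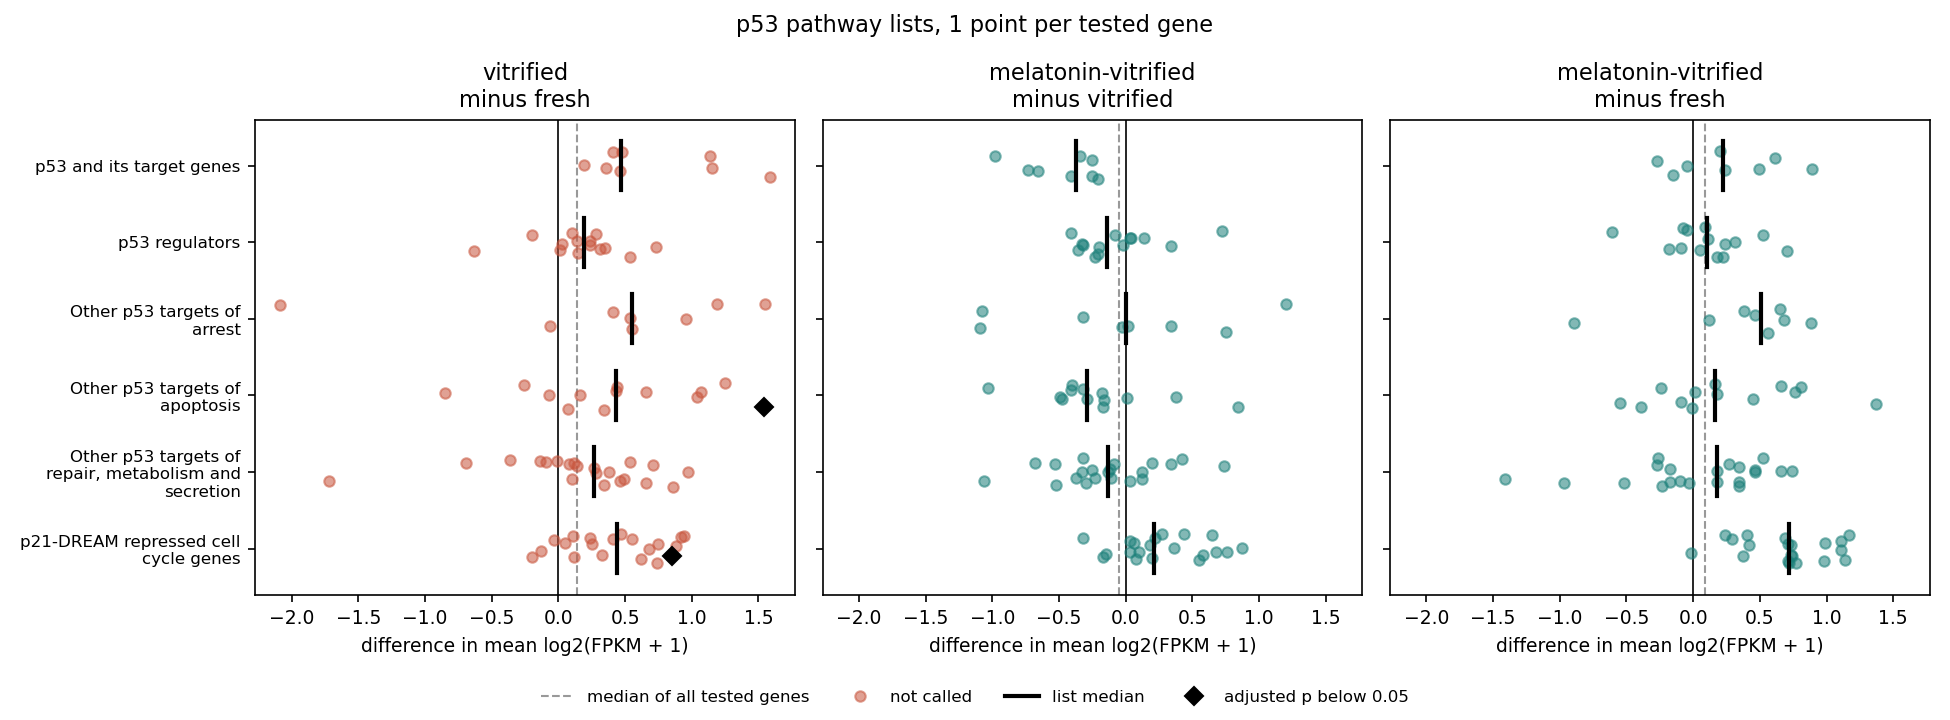
Differences in mean log2(FPKM + 1) of each tested gene (points) in the members and the 5 wider lists for the 3 comparisons, with list medians as black bars, the median of all tested genes as a dashed line and genes with an adjusted p below 0.05 as black diamonds. Perp and Melk are the 2 genes that passed, both for vitrified minus fresh, and the DREAM genes reach a median of 0.72 for melatonin-vitrified minus fresh.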

How the data were processed

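The authors deposited 1 table of FPKM per gene and library, on genome build mm10 per the submitters' processing notes. The sources used here do not name the aligner, counting tool, annotation, filters or use of strand. The series text names Smart-seq2, while the labels' protocol describes bulk, stranded, poly(A)-selected libraries. Coordinates, transcripts and overlapping genes came from GENCODE release M21 (GRCm38), and promoter sequences from RefSeq (GRCm38.p6). Fragments per library were estimated from the steps of FPKM times length in genes with 1 annotated transcript, where 94.7% to 96.4% of low values were within 0.1 of a whole number.

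For the tests, log2(FPKM + 1) of all 8 libraries entered a single limma fit (version 3.58.1, R 4.3.3) whose prior variance followed the mean level, for genes with at least 1 FPKM in at least 2 libraries (10755, with 8933 left out). Calls had a two-sided Benjamini-Hochberg adjusted p below 0.05 over all tested genes. Such differences understate changes of genes with low values. Alternatives were a pseudocount of 0.1, no filter, median ratio scaling, only the groups compared, the biosample number as a block and each library left out. The model was tested on simulated data. The members and lists were chosen with earlier results of these data known. Named are all members, and of each wider list the genes called and the 3 with the smallest p in each comparison. Python 3.11.15, pandas 2.3.3 and matplotlib 3.10.9 were used for tables and figures.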

Additional observations from a re-analysis of the deposited data

How the results depend on the processing

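The number of tested members called was 0 in every comparison under all 13 alternatives. All 8 members kept the sign of their difference under scaling, pseudocount, filter, block and fits of only the groups compared. Signs turned when single libraries were left out. Without fresh replicate 2, Bbc3 was at -0.05 and Phlda3 at -0.52 for vitrified against fresh, and Cdkn1a at -0.19 and Ccng1 at -0.14 for melatonin-vitrified against fresh blastocysts. Without fresh replicate 1, the last comparison gave 0.24 for Bbc3, -0.62 for Pmaip1 and 0.83 for Phlda3. Without melatonin-vitrified replicate 2 it gave 0.07 for Bbc3, -0.01 for Pmaip1 and 0.06 for Phlda3. Without melatonin-vitrified replicate 3, Pmaip1 was at 0.30 against vitrified blastocysts. With single libraries left out, the opposite ends of these ranges for vitrified against fresh were 0.97 for Bbc3 and 1.24 for Phlda3, and for melatonin-vitrified against vitrified -1.22 for Pmaip1. For melatonin-vitrified against fresh they were 1.42 for Cdkn1a, 0.62 for Ccng1, -0.78 for Bbc3, 1.6 for Pmaip1 and -0.93 for Phlda3.

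Over all genes, 93 were called between vitrified and fresh blastocysts (82 higher, 11 lower), against 1 without a filter, 7 with median ratio scaling (3 higher, 4 lower), 11 with only the 2 groups, and 2 to 433 when single libraries were left out (17 without fresh replicate 1, 433 without fresh replicate 2). Between melatonin-vitrified and vitrified blastocysts 15 were called, against 6 with a pseudocount of 0.1, 68 with only the 2 groups, and 1 to 68 when libraries were left out. Between melatonin-vitrified and fresh blastocysts 0 were called, against 5 with a pseudocount of 0.1, 2 with only the 2 groups, and 0 to 565 when libraries were left out (565 without fresh replicate 2). Of the wider lists, 2 genes were called between vitrified and fresh blastocysts, against 0 without a filter or with median ratio scaling, 1 with only the 2 groups (Plk3, lower, with Perp and Melk lost), and 0 to 6 when libraries were left out. The lists' counts with libraries left out were 0 to 1 for melatonin-vitrified against vitrified and 0 to 8 against fresh blastocysts. The causes were not tested.

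With the biosample number as a replicate block, 1, 1 and 0 genes were called in the 3 comparisons, with 0 in the wider lists. Libraries with the same biosample number did not deviate together (correlations of -0.115 to 0.121). Those whose titles share a number did not either (-0.115 to 0.0392), and no fit with title numbers was made. Zmat3 stayed under 1 FPKM in all libraries and Gadd45a in 7 of 8, which is the range of few fragments.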

Other observations

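Vitrified replicate 2 had the highest level of 5 of the 8 tested members (Trp53, Mdm2, Cdkn1a, Pmaip1 and Sesn1), and of Zmat3 among those not tested, while it was the highest library for 17.7% of all tested genes. This count was chosen after the values were seen. Summed over the 10 members, this library had 229 FPKM, against 173 and 187 FPKM in the other vitrified libraries, 132 to 166 FPKM in the melatonin-vitrified libraries and 183 and 94.6 FPKM in fresh replicates 1 and 2. Phlda3, Ccng1 and Cdkn1a make up most of these sums.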
